A study of Mus musculus with 4 samples.

Results

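Endocardial nuclei, from the endothelial layer that lines the heart's chambers, were described in 4 single-nucleus RNA libraries of mouse heart. The nuclei were chosen by their measured UMI counts of named genes. A nucleus counted as endocardial when it had at least 500 unique molecular identifiers (UMIs, each standing for 1 captured RNA molecule), at most 5% of them mitochondrial, and under 3% from 7 cardiomyocyte genes. It also needed at least 2 UMIs over 8 general endothelial genes (Pecam1, Cdh5, Emcn, Tek, Tie1, Ptprb, Vwf and Egfl7) and at least 3 over 7 endocardial genes (Npr3, Nrg1, Smoc1, Tmem108, Bmx, Cdh11 and Plagl1), with Npr3 or Nrg1 among them. Nuclei with any UMI of the lymphatic genes Mmrn1, Reln or Prox1, of the macrophage gene Csf1r or of the fibroblast gene Dcn were left out. These criteria kept 188 of 41706 nuclei, and 20609 nuclei met the UMI and mitochondrial limits. For comparison, 2878 other endothelial nuclei met the same criteria with 0 UMIs over the 7 endocardial genes.

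The 2 cKO libraries were labelled PKP2fl/fl MCM cre/+ with the genotype tag pkp2 cko, and the 2 control libraries were labelled MCM cre/+ with the genotype tag wt. Pkp2 codes for plakophilin 2, which is part of the desmosome, a junction between cardiomyocytes. Both groups carried the MCM Cre allele by title and received tamoxifen, which activates such a Cre. The mice were 8 weeks old, whole hearts were taken 2 weeks after tamoxifen, and each library pooled the hearts of 2 mice, so a library is 1 replicate (n = 2 per group) and its nuclei are not replicates. The labels do not give the promoter that drives the Cre, and they name the cells cardiomyocytes although whole-heart nuclei, sorted on a nuclear pore antibody, were sequenced. How many endocardial nuclei were recovered can depend on the sort too.

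The endocardium shares general endothelial genes with the vessels of the heart wall but has its own transcription factors, such as Gata4, and its own signals to the muscle beneath it. Among these is neuregulin 1 (Nrg1), a ligand that acts on ErbB receptors of cardiomyocytes. Npr3 encodes a natriuretic peptide receptor that clears the peptides from the circulation and is a widely used endocardial marker. Endocardial cells are also known for BMP and Notch signalling and for producing the matrix of valves and cushions.

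The libraries held 20992683 and 40536562 UMIs in cKO 1 and 2, against 13491201 and 35204091 in control 1 and 2, and no pair of libraries shared more than 2 cell labels. Endocardial nuclei numbered 32 and 80 in cKO 1 and 2, against 13 and 63 in control 1 and 2. Their summed UMIs were 54548 and 174861 in the cKO libraries, against 25103 and 109184 in the controls, so control 1 is the thinnest sum and 1 UMI in it is worth the most. Median UMIs per endocardial nucleus were 1508 and 2027.5 in the cKO libraries, against 1737 and 1598 in the controls. Levels below are CPM, the UMIs of a gene per 1000000 UMIs summed over those nuclei in a library. They were not divided by gene length, so a gene is compared only with itself.

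The targeted gene, Pkp2, had 5 and 18 UMIs in endocardial nuclei of cKO 1 and 2, against 5 and 8 in control 1 and 2. In cardiomyocyte nuclei, where Pkp2 is high, its level was 619.99 and 574 CPM in cKO 1 and 2, against 555 and 526 CPM in control 1 and 2. The cKO libraries were thus not lower in Pkp2 RNA; the labels do not say which exons are flanked by loxP sites, so whole-gene counts do not check the deletion. Esr1, the estrogen receptor gene, a modified form of which makes up part of tamoxifen-inducible Cre proteins, stood at 3586.5 and 3274 CPM in cardiomyocyte nuclei of the cKO libraries, against 86.6 and 67.0 CPM in those of the controls. In endocardial nuclei Esr1 was 348 and 109 CPM in cKO 1 and 2, against 159 and 192 CPM in control 1 and 2, so the groups overlapped there. Cardiomyocyte nuclei of the 2 groups thus differed in Esr1 RNA, and whether that RNA comes from the Cre transgene was not tested. The controls can therefore not be taken as matched for the Cre. An effect of the Cre cannot be told apart from one of Pkp2 loss here. Each pool was described as 1 male and 1 female heart, yet Xist, transcribed from the inactive X of females, had 13 and 28 UMIs over all nuclei of cKO 1 and 2, against 7 and 22 in control 1 and 2. Over the same nuclei 4 Y-linked genes had 9053 and 17307 UMIs in cKO 1 and 2, against 5625 and 13669 in control 1 and 2.

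The label was checked on genes that the selection did not use. Of 16 endocardial genes outside the rule, 9 were higher in endocardial than in other endothelial nuclei of every library: Adgrg6, Cgnl1, Cytl1, Foxc1, Gata4, Gata6, Hand2, Mecom and Tmem100. Fgd5 and Nrp2 were lower in every library, and Gata5 and Hapln1 had 0 UMIs in endocardial nuclei. The 16 genes summed to 4546 and 4558 CPM in endocardial nuclei of cKO 1 and 2, and to 4501 and 5495 CPM in those of control 1 and 2. The same genes in other endothelial nuclei summed to 3005 and 3137 CPM in cKO 1 and 2 and to 2563 and 3150 CPM in control 1 and 2. Conversely, all 15 capillary markers, among them Kdr, Fabp4, Cd36 and Gpihbp1, were lower in endocardial nuclei of all 4 libraries. The 8 venous markers were higher in sum, at 1320 and 1304 CPM in endocardial nuclei of cKO 1 and 2 and 956 and 1365 CPM in those of control 1 and 2. In other endothelial nuclei they summed to 764 and 809 CPM in cKO 1 and 2 and to 485 and 546 CPM in control 1 and 2. Nr2f2 and Vcam1 were higher in every library and Aqp7 was lower. Whether some of the nuclei are venous was not tested. Because the selection works on the same nuclei, these and the other endocardial against endothelial values are a description with no test. The share of all genes that were higher or lower in every library was not counted, so the counts of list members have no background to be set against.

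Of the genes that chose the nuclei, Npr3 had a UMI in 82.4% of endocardial nuclei, Tmem108 in 75.5%, Cdh11 in 56.4%, Nrg1 in 52.7%, Smoc1 in 43.6%, Bmx in 37.8% and Plagl1 in 32.4%. Nuclei of other types also held UMIs of these genes, and whether they came from free RNA, doublets or the nuclei themselves was not tested. Npr3 had a UMI in 3.75% of 1789 fibroblast nuclei, 3.16% of 569 macrophage nuclei and 3.40% of 6669 cardiomyocyte nuclei. Nrg1 had one in 6.48%, 5.98% and 5.44% of the same nuclei, and Tmem108 in 4.42%, 4.22% and 8.89%. Of the general endothelial genes, Pecam1 and Cdh5 were at 0 in fibroblast nuclei by selection. The others had a UMI in 5.87% (Vwf) to 35.3% (Tek) of fibroblast nuclei. Vwf, the von Willebrand factor gene, stood at 1778 and 1321 CPM in endocardial nuclei of cKO 1 and 2 and at 1474 and 1246 CPM in those of control 1 and 2. Vwf in other endothelial nuclei was 285 and 180.3 CPM in the cKO libraries and 149.8 and 117 CPM in the controls.

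The threshold of 3 endocardial UMIs cut through a gradient. The 64 nuclei with 2 such UMIs, just outside, had 3082 CPM of the endocardial genes outside the rule and 7012 CPM of capillary markers. The 29 nuclei with 3, just inside, had 3700.3 and 4725 CPM of the same lists. The 140 nuclei with at least 5 had 5144 and 2802 CPM. They made up 19 of the 32 and 57 of the 80 endocardial nuclei in cKO 1 and 2, against 11 of 13 and 53 of 63 in control 1 and 2, so nuclei near the threshold were more frequent in both cKO libraries; the difference was not tested.

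Outside the rule, the genes with the highest ratio of endocardial to other endothelial CPM covered an imprinted RNA, receptors, adhesion molecules and matrix. H19, an imprinted non-coding RNA, was 157 times as high. It stood at 219.99 and 240.2 CPM in endocardial nuclei of cKO 1 and 2 and at 757 and 183 CPM in those of control 1 and 2, with at most 4.54 CPM in other endothelial nuclei of any library. Chrm3, which encodes the M3 muscarinic acetylcholine receptor, was 36.6 times as high. Pkhd1l1, which some sources list among lymphatic markers, was 28.0 times as high, while Mmrn1, Reln and Prox1 were at 0 by selection. Others with high ratios were Tuft1 (69.8), Ahsg (35), Rasgef1b (26.1), Epha7 (21.8), Nrxn3 (18.6), Col4a4 (17.5), Col23a1 (17.1), Col4a3 (16.9), Dpp4 (16.3), Cytl1 (14.7), Kank1 (13.6), Pdlim3 (12.1), Adam33 (12), Ncam1 (11.8), Ephx2 (11.6) and Fgf14 (11.4), with the ratio in parentheses.

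**Figure D1:**
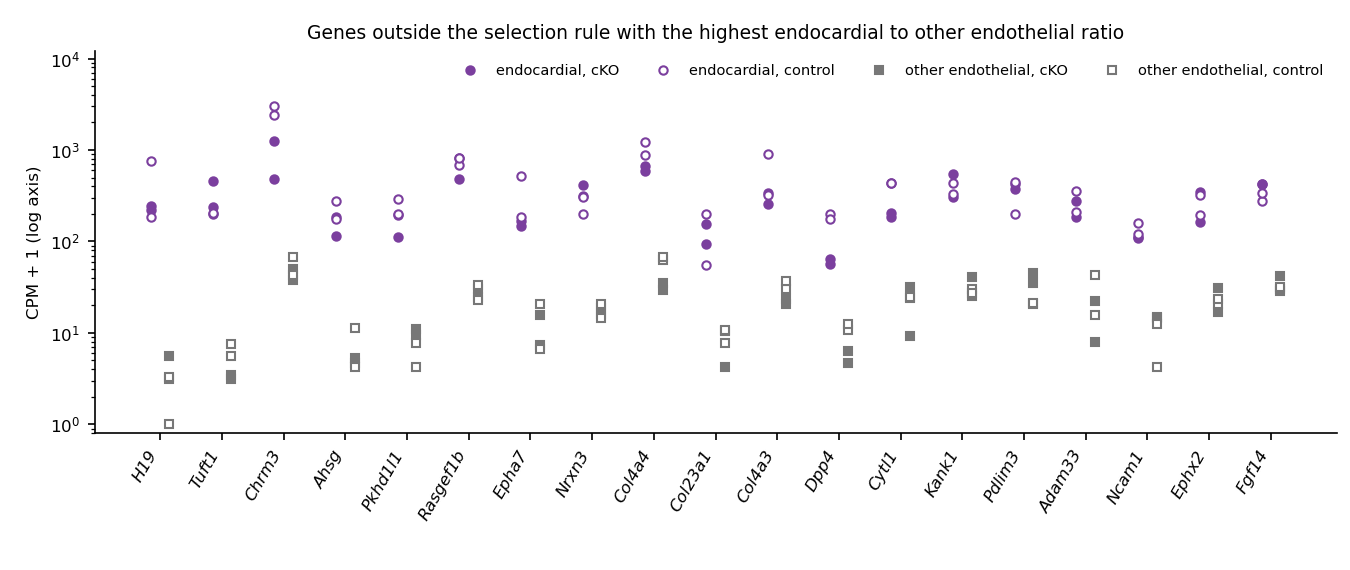
CPM + 1 on a log axis for 19 genes outside the selection rule with the highest ratios of endocardial to other endothelial CPM; each point is 1 library, circles are endocardial and squares other endothelial nuclei, filled for cKO and open for control. The genes were chosen by this ratio, so endocardial points above the other endothelial points follow largely from the choice. Chrm3 has its cKO circles (477 and 1247 CPM) below its control circles (2390.2 and 3032 CPM).

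At the other end, Rgs5 had the lowest ratio, 0.0989. Rgs5 is also a marker of pericytes, the mural cells around capillaries, so its level in other endothelial nuclei may include RNA of those cells, which was not tested. Efr3b (0.105), Cyp4b1 (0.107), Rsad2 (0.142), Sertad2 (0.160), Tspan15 (0.162), Cdh23 (0.164), Cabp1 (0.169), Slc12a2 (0.173) and Timp4 (0.174) followed. Timp4, which codes for a tissue inhibitor of metalloproteinases, was 0 and 11.4 CPM in endocardial nuclei of cKO 1 and 2 and 39.8 and 45.8 CPM in those of control 1 and 2. Timp4 fell in other endothelial nuclei, with 63.9 and 50.3 CPM in cKO 1 and 2, against 238 and 205 CPM in control 1 and 2 (adjusted p = 0.00416, edgeR's quasi-likelihood test with Benjamini-Hochberg adjustment).

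Among the matrix genes, the type IV collagen chains divided. Col4a3 and Col4a4 encode chains of the collagen IV network best known from the kidney's filtering membrane, and Col4a1 and Col4a2 encode the chains of the network found in nearly all basement membranes. Col4a4 stood at 659.97 and 583 CPM in endocardial nuclei of cKO 1 and 2, against 876 and 1236 CPM in control 1 and 2, with at most 67.1 CPM in other endothelial nuclei. Col4a3 stood at 257 and 337 CPM in cKO 1 and 2, against 319 and 907 CPM in control 1 and 2, with at most 36.4 CPM in other endothelial nuclei. Col4a5, whose product assembles with those of Col4a3 and Col4a4, was about equal in both kinds of nuclei, at a ratio of 0.993. Col4a1 and Col4a2 ran the other way, at 0.388 and 0.382 of their other endothelial level.

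Col4a3 and Col4a4 lie head to head on chromosome 1 with 71 bases between their annotated starts (GENCODE M21, GRCm38 coordinates, 82586849 for Col4a4 on the minus strand and 82586921 for Col4a3 on the plus strand). Their shared promoter is shown because these are neighbouring genes that both stood among the genes with the highest endocardial ratios. The RefSeq window of Col4a4 (GRCm38.p6, chr1:82586800-82587099, minus strand, 250 bases before and 50 after the start) reads as follows, with the letters AGGAAG, the core that ETS factors recognise, in capitals.
Col4a4 promoter: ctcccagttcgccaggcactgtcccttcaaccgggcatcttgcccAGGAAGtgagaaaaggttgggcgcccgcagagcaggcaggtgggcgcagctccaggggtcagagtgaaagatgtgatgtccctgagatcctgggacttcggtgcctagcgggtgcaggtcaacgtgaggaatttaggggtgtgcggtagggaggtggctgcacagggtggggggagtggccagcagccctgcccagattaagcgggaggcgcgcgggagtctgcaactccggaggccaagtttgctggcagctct
Both strands were searched for AGGAAG, found once here and in 35.4% of 32851 promoter windows of this length. The GATA letters AGATAA, present in 11.2% of windows, and the GC box letters GGGCGG, present in 35.7%, were not in this window. The matches are descriptions of letters and say nothing of whether a factor binds.

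Endocardial nuclei made up 0.822% and 1.10% of the nuclei kept in cKO 1 and 2, against 0.434% and 0.981% in control 1 and 2. The exact 95% binomial intervals, which cover counting error only, were 0.563 to 1.16% and 0.871 to 1.36% in the cKO libraries, against 0.231 to 0.741% and 0.754 to 1.25% in the controls. Control 1 was the lowest and the groups overlapped: the mean share was 0.959% ± 0.194 in cKO and 0.707% ± 0.387 in control libraries (SD, n = 2 each; exact permutation test over libraries, two-sided p = 0.667, where 2 against 2 libraries allow no p below 0.33). The log2 ratio of the means was 0.44 and turned to -0.03 without control 1. With nuclei of at least 1000 UMIs thinned to 1000 before the criteria were applied, which left 8 endocardial nuclei in control 1, the shares were 1.25% and 1.29% in cKO 1 and 2, against 0.33% and 1.04% in control 1 and 2. These no longer overlapped (log2 ratio 0.89, two-sided exact permutation p = 0.33, the smallest possible). As a share of endothelial nuclei, endocardial nuclei were 4.02% and 4.70% in cKO 1 and 2, against 3.89% and 7.57% in control 1 and 2. Their means were 4.36% ± 0.485 in cKO and 5.73% ± 2.60 in control libraries (SD, n = 2 each, two-sided exact permutation p = 1), and the log2 ratio of -0.40 turned to 0.16 without control 2. The share of endothelial nuclei followed the mitochondrial limit. With up to 20% mitochondrial UMIs it was 8.15% ± 0.265 in cKO and 10.1% ± 0.161 in control libraries, which did not overlap; the exact permutation p was 0.33, the smallest that 2 against 2 libraries allow.

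The mix of Npr3 and Nrg1 within the endocardial nuclei is given as a description with no test, since a nucleus needed a UMI of one of them to be chosen. Nuclei with UMIs of Npr3 and none of Nrg1 were 37.5% and 35% in cKO 1 and 2, against 61.5% and 65.1% in control 1 and 2. Nuclei with UMIs of both were 34.4% and 45% in cKO 1 and 2, against 23.1% and 25.4% in the controls, and those with Nrg1 alone were 28.1% and 20% in cKO 1 and 2, against 15.4% and 9.52% in the controls. Any Nrg1 UMI was thus seen in 62.5% and 65% of endocardial nuclei of the cKO libraries, against 38.5% and 34.9% in the controls. With each nucleus thinned to 1000 UMIs, leaving out 2 and 2 nuclei in cKO 1 and 2 and 4 and 8 in control 1 and 2, the shares with Nrg1 were 53.3% and 60.3% in the cKO libraries, against 33.3% and 34.5% in the controls. For Npr3 the thinned shares were 53.3% and 62.8% in cKO 1 and 2, against 66.7% and 74.5% in control 1 and 2.

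**Figure D2:**
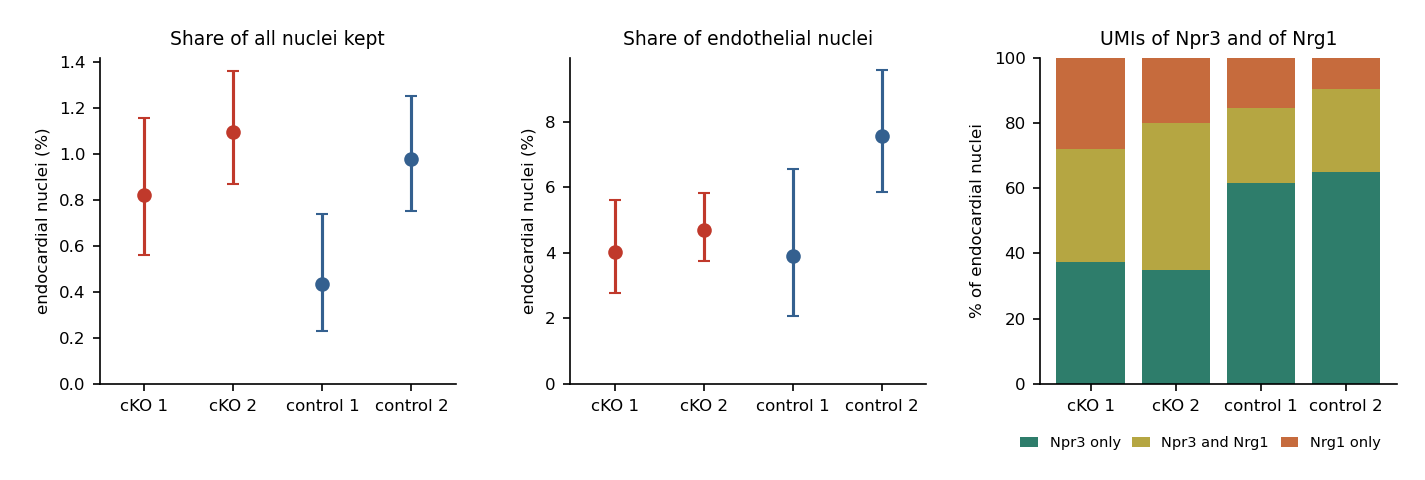
Endocardial nuclei as a percentage of all nuclei kept and of endothelial nuclei in each library, with exact 95% binomial intervals, and stacked percentages of endocardial nuclei with UMIs of Npr3 only, of both genes and of Nrg1 only. Both shares overlap between groups, and nuclei with Npr3 alone, a description by 2 genes of the selection, are 37.5% and 35% in the cKO libraries against 61.5% and 65.1% in the controls.

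Since Nrg1 helped to choose the nuclei, it was tested in nuclei chosen without counting it. These all needed a UMI of Npr3 and numbered 21 and 61 in cKO 1 and 2, against 11 and 56 in control 1 and 2. There Nrg1 was 1821 and 2252 CPM in cKO 1 and 2, against 1323 and 1041 CPM in control 1 and 2, a log2 fold change of 0.87 ± 0.29 (SE; unadjusted p = 0.0102, adjusted p = 0.548, edgeR's quasi-likelihood test with Benjamini-Hochberg adjustment over all genes). The groups did not overlap, but the gene did not pass the threshold of 0.05. Tmem108 and Ptprb were each tested in nuclei chosen without counting that gene. Tmem108, a transmembrane protein gene, was 1279 and 1241 CPM in cKO 1 and 2, against 2400.3 and 2199.8 CPM in control 1 and 2 (log2 fold change -0.81, adjusted p = 0.404 in the same edgeR test). Ptprb, which encodes a vascular phosphatase that dephosphorylates the angiopoietin receptor Tek, was 2168 and 1840.5 CPM in cKO 1 and 2, against 876 and 833 CPM in control 1 and 2. Its log2 fold change was 1.26 ± 0.29 (SE), with an adjusted p of 0.0953 in that edgeR test. Npr3 could be tested only in nuclei with a UMI of Nrg1, which numbered 18 and 50 in cKO 1 and 2, against 5 and 20 in control 1 and 2. In these it gave -0.40 with an adjusted p of 0.886 in the edgeR test, with 600 genes tested and 8 Npr3 UMIs in control 1. The remaining 11 rule genes, each tested in nuclei chosen without counting it, lay between -0.24 and 0.47.

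Comparing cKO with control over all genes, 5 of 2007 genes tested in endocardial nuclei passed an adjusted p of 0.05 in edgeR's quasi-likelihood test, 0.249% of those tested. Adamts9, Igfbp7, Eln and Gpnmb were higher in the cKO libraries (0.199%) and Kcnd3 was lower (0.0498%). All 5 genes had cKO and control libraries that did not overlap. The share of such genes among all 2007 tested was not counted, so remarks on overlap here and below describe single genes only. At an unadjusted p under 0.05 there were 152 genes, or 7.57%, and the median log2 fold change of all genes tested was 0.01. The calls rested on few libraries: without cKO 1 no gene passed (88 at an unadjusted p under 0.05), without cKO 2 there were 3, without control 2 there was 1, and without control 1, the library of 13 nuclei, there were 16. Only the last of these sets held the 5 genes; the other 3 held none of them. DESeq2 called 0 genes, with 40 at an unadjusted p under 0.05. In every alternative that gave a value the 5 genes kept their direction, but not every alternative gave one. Adamts9, Igfbp7 and Eln had a value in 16, Kcnd3 in 14 and Gpnmb in 12. Kcnd3 had none without control 2, the library with most of its UMIs, and none with under 1% cardiomyocyte UMIs. Gpnmb had none without cKO 2, which held most of its UMIs.

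Eln encodes elastin, the core of elastic fibres. Its level was 1539.9 and 1578 CPM in endocardial nuclei of cKO 1 and 2, against 518 and 540.4 CPM in control 1 and 2. Both cKO libraries were nearly equal and so were both controls, and the log2 fold change was 1.58 ± 0.31 (SE, adjusted p = 0.0388, edgeR). The UMIs came from 18 and 47 nuclei in cKO 1 and 2, against 6 and 32 in control 1 and 2. Eln in other endothelial nuclei was 660.4 and 594 CPM in cKO 1 and 2, against 326 and 383 CPM in control 1 and 2, which did not pass the test (0.79, adjusted p = 0.128, edgeR). In fibroblast nuclei it was 1274 and 1089 CPM in the cKO libraries, against 499 and 461 CPM in the controls. Eln overlaps 1 gene on the other strand, Gm30003, and the labels do not say whether counting used strand.

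Igfbp7, which encodes a secreted protein that binds insulin-like growth factors, was 587 and 623 CPM in endocardial nuclei of cKO 1 and 2, against 119.5 and 128 CPM in control 1 and 2. The groups lay far apart, with UMIs in 14 and 38 nuclei of the cKO libraries, against 3 and 9 of the controls, and the log2 fold change was 2.28 ± 0.43 (SE, adjusted p = 0.0352, edgeR). Igfbp7 rose in other endothelial nuclei too, with 1355 and 1308 CPM in cKO 1 and 2, against 668 and 549 CPM in control 1 and 2 (1.13, adjusted p = 0.0223, edgeR), and passed there without control 1 (0.044) but not without cKO 1, cKO 2 or control 2 (0.0767 to 0.255). The difference between the classes of 1.13 did not pass its test (adjusted p = 0.393, edgeR). In fibroblast nuclei Igfbp7 was 2510.4 and 1916 CPM in the cKO libraries, against 792 and 718 CPM in the controls. Polr2b and Gm34648 overlap it on the other strand.

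Adamts9, which encodes a secreted protease that cleaves the proteoglycan versican, was 293 and 343 CPM in endocardial nuclei of cKO 1 and 2, against 39.8 and 27.5 CPM in control 1 and 2. These levels rest on 16 and 60 UMIs from 5 and 20 nuclei in cKO 1 and 2, against 1 and 3 UMIs from 1 and 2 nuclei in control 1 and 2. In edgeR this was a log2 fold change of 3.40 ± 0.60 (SE), with an adjusted p of 0.0323. With mitochondrial limits of 10% and 20% it was 1.66 and 1.36 and did not pass (adjusted p = 0.202 and 0.118, edgeR). Other endothelial nuclei held more Adamts9 in every library, with 563 and 1159 CPM in cKO 1 and 2, against 417 and 474 CPM in control 1 and 2 (0.95, adjusted p = 0.19, edgeR). The difference of 2.49 between the classes had an adjusted p of 0.0567 in edgeR. Adamts9 overlaps 9530026P05Rik, A730049H05Rik and Gm15737 on the other strand.

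Kcnd3, which encodes a potassium channel subunit of the transient outward current of cardiomyocytes, fell in cKO libraries. It was 36.7 and 45.8 CPM in endocardial nuclei of cKO 1 and 2, against 159 and 458 CPM in control 1 and 2, and the log2 fold change in edgeR was -3.00 ± 0.57 (SE) with an adjusted p of 0.0352. Control 2 was far above control 1, and the counts were 2 and 8 UMIs in the cKO libraries, against 4 and 50 in the controls. In cardiomyocyte nuclei Kcnd3 was 269 and 293 CPM in cKO 1 and 2, against 419.9 and 444 CPM in control 1 and 2. Summed cardiomyocyte markers were 8690 and 7217 CPM in endocardial nuclei of cKO 1 and 2, against 12190 and 6823 CPM in control 1 and 2, and their part in the Kcnd3 result was not tested. Kcnd3 shares its locus with Gm43847 and with Kcnd3os on the other strand.

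Gpnmb, a glycoprotein gene best known from macrophages that take up lipid or debris, had 8 and 55 UMIs in endocardial nuclei of cKO 1 and 2, against 0 and 0 in control 1 and 2. Only 1 and 2 nuclei carried them, and 54 of the 63 UMIs came from 1 nucleus of cKO 2. That nucleus had 5446 UMIs, of which 11 were of endocardial rule genes, 4 of endothelial rule genes and 65 of macrophage markers, Gpnmb included. The pooled level was at least 12.3 times as high in the cKO libraries, with a floor of 3 counts for the control group (adjusted p = 0.0323, edgeR). In macrophage nuclei Gpnmb was 378 and 174 CPM in cKO 1 and 2, against 27.9 and 0 CPM in control 1 and 2. Without nuclei that carried markers of other cell types, a rule chosen after seeing the data, Gpnmb was too low to be tested, while Adamts9, Igfbp7, Eln and Kcnd3 still passed at adjusted p values of 0.00721 to 0.0101 in edgeR.

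**Figure D3:**
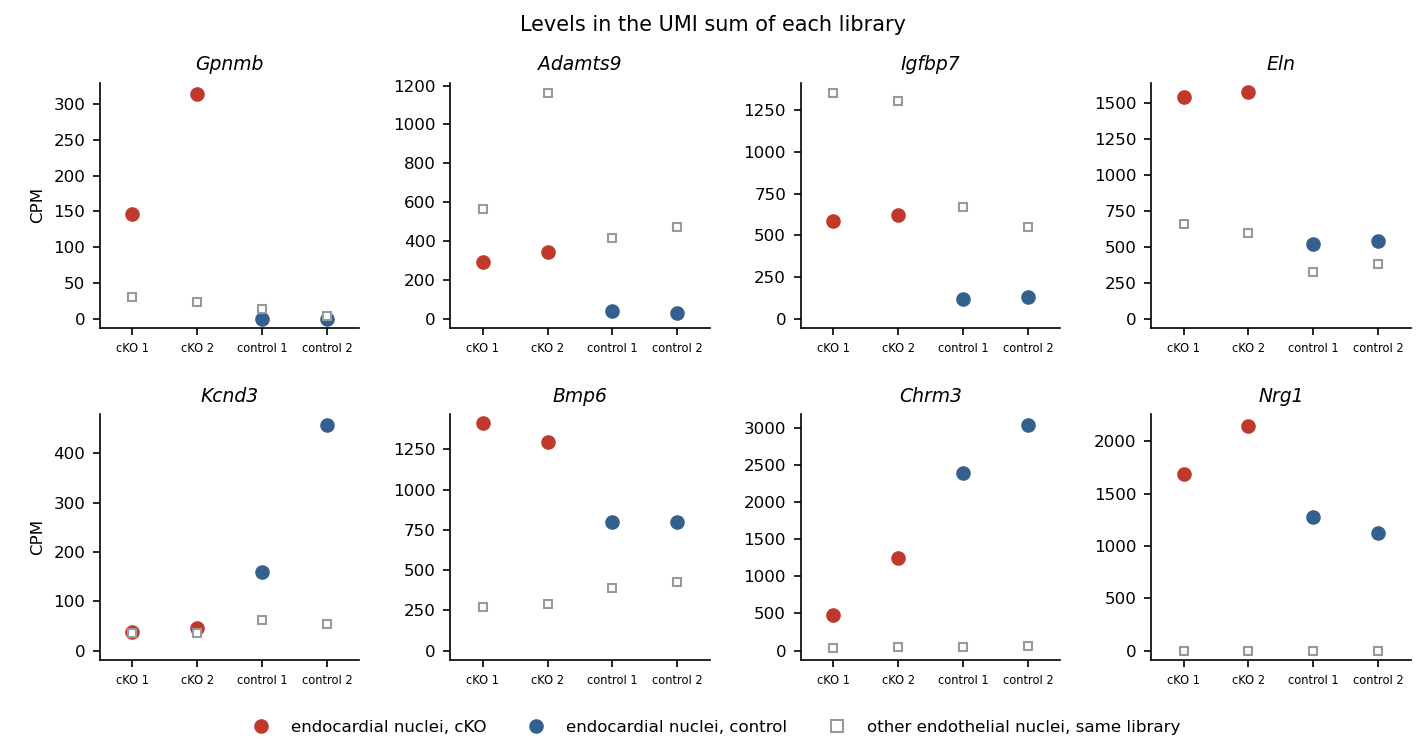
CPM of 8 genes in endocardial nuclei (filled circles) and in other endothelial nuclei (open squares) of each library, cKO to the left of control. Gpnmb, Adamts9, Igfbp7 and Eln are higher and Kcnd3 is lower in endocardial nuclei of both cKO libraries; Bmp6 (1412 and 1298 CPM against 797 and 797 CPM in controls) and Chrm3 do not overlap between groups and did not pass the edgeR test, and Nrg1 is shown as one of the genes that chose the nuclei.

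The endocardial gene Chrm3 came next in line, with 477 and 1247 CPM in cKO 1 and 2, against 2390.2 and 3032 CPM in control 1 and 2. Both cKO libraries were lower than both controls, but cKO 1 and 2 were far from each other. Its log2 fold change of -1.56 ± 0.34 (SE) did not pass (adjusted p = 0.0938, edgeR), and its adjusted p ran between 1.39e-08 and 1 over the alternatives. Without cKO 2 or control 1 it passed (1.1e-06 and 3.56e-06, edgeR), and without cKO 1 its adjusted p was 1. Chrm3 in other endothelial nuclei was 37.3 and 49.5 CPM in cKO 1 and 2, against 42.3 and 66 CPM in control 1 and 2. Chrm3 overlaps 4 genes on its own strand and 2 on the other.

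Of 41 matrix and basement membrane genes 20 were tested, 15 of them had a log2 fold change above 0 against 50.7% of all genes tested, and their median was 0.73. Of the 20, 2 passed the threshold, Adamts9 and Eln, against 0.249% of all genes tested. At an unadjusted p under 0.05 there were 10, 8 of them higher and 2 lower, against 7.57% of all genes tested. The summed level of the 41 genes was 10468 and 9876 CPM in endocardial nuclei of cKO 1 and 2, against 7170 and 8573 CPM in control 1 and 2.

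The collagen IV chains lay on both sides of 0. Col4a1 was 532 and 366 CPM in cKO 1 and 2, against 159 and 156 CPM in control 1 and 2 (log2 fold change 1.48 ± 0.44, SE; adjusted p = 0.296, edgeR), and its groups did not overlap. Col4a2 was 513 and 303 CPM in cKO 1 and 2, against 159 and 183 CPM in control 1 and 2 (1.14, adjusted p = 0.525, edgeR). Col4a3 and Col4a4, whose levels stand above, gave -1.15 ± 0.42 and -0.80 ± 0.33 (SE, adjusted p = 0.473 and 0.525, edgeR), and the groups overlapped for Col4a3 but not for Col4a4. Control libraries decided the Col4a3 value: it passed without control 1 (-1.58, adjusted p = 0.0196, edgeR) and was 0.10 without control 2 (adjusted p = 0.962, edgeR). Col4a1 rose in other endothelial nuclei, with 1180.2 and 915 CPM in cKO 1 and 2, against 550.4 and 479.9 CPM in control 1 and 2 (1.01, adjusted p = 0.0433, edgeR); it did not pass there when any 1 library was left out (adjusted p from 0.0752 to 0.355). None of these 4 chains passed the test of a difference between the classes.

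Further matrix genes were higher in both cKO libraries without passing. Col15a1, a collagen of the basement membrane zone, was 293 and 160.1 CPM in endocardial nuclei of cKO 1 and 2, against 39.8 and 36.6 CPM in control 1 and 2 (2.47, adjusted p = 0.282, edgeR). Fn1, which encodes fibronectin, was 183 and 166 CPM in cKO 1 and 2, against 39.8 and 45.8 CPM in control 1 and 2 (1.95, adjusted p = 0.473, edgeR). Hspg2, which encodes perlecan, had a log2 fold change of 0.96 and Sparc, a collagen-binding protein gene, one of 1.15, and neither passed. Fibroblast nuclei hold many of these RNAs, with 20420 and 17680 CPM of the 41 genes in cKO 1 and 2, against 11199 and 10460 CPM in control 1 and 2. The 15 fibroblast markers summed to 1943 and 1498 CPM in endocardial nuclei of cKO 1 and 2, against 598 and 1172 CPM in control 1 and 2. The cKO libraries were the higher ones, and Dcn was at 0 by selection. Without the nuclei that carried markers of other cell types, Eln, Adamts9 and Col15a1 had log2 fold changes of 1.84, 3.49 and 2.47. With all endocardial nuclei kept, Col3a1, which encodes the chain of collagen III, was 367 and 223 CPM in cKO 1 and 2, against 39.8 and 73.3 CPM in control 1 and 2 (2.08, adjusted p = 0.236, edgeR). Without the nuclei that carried markers of other cell types, Col3a1 was too low to be tested. In fibroblast nuclei it was 3752 and 2347 CPM in the cKO libraries, against 800.2 and 573 CPM in the controls.

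All 6 capillary markers that could be tested of 15 had a log2 fold change above 0, against 50.7% of all genes tested, with a median of 0.72. Of the 6, 3 had an unadjusted p under 0.05, against 7.57% of all genes tested, and none passed the adjusted threshold. Kdr, which encodes the main VEGF receptor, was 513 and 309 CPM in endocardial nuclei of cKO 1 and 2, against 79.7 and 128 CPM in control 1 and 2 (1.75 ± 0.48, SE; adjusted p = 0.276, edgeR). In nuclei with at least 5 endocardial UMIs the log2 fold change of Kdr was 1.03 (adjusted p = 0.938, edgeR), and it was 1.06 and 0.96 with mitochondrial limits of 10% and 20%. Fabp4, a fatty acid binding protein gene, was 697 and 269 CPM in cKO 1 and 2, against 199 and 192 CPM in control 1 and 2 (1.19, adjusted p = 0.543, edgeR), and Flt1, a VEGF receptor that also acts as a decoy, was 1539.9 and 1538 CPM in cKO 1 and 2, against 1155 and 962 CPM in control 1 and 2 (0.60, adjusted p = 0.646, edgeR). All 15 markers summed to 4693 and 3683 CPM in endocardial nuclei of cKO 1 and 2, against 2549.5 and 2290 CPM in control 1 and 2. Their sum in other endothelial nuclei was 8728 and 8288 CPM in the cKO libraries, against 7050.4 and 6533 CPM in the controls.

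The VEGF and angiopoietin list shares Kdr and Flt1 with the capillary list. Of its 22 members 3 are genes of the selection (Tek, Tie1 and Ptprb) and were left out of the count. Of the others 5 were tested, all 5 had a log2 fold change above 0 with a median of 0.60, and 3 had an unadjusted p under 0.05, all higher in cKO: Kdr, Nrp2 and Flt1. Over all genes tested, 50.7% were above 0 and 7.57% had an unadjusted p under 0.05. Nrp2, a co-receptor for VEGF and semaphorins, was 513 and 429 CPM in cKO 1 and 2, against 319 and 211 CPM in control 1 and 2 (0.97, adjusted p = 0.542, edgeR). Tek and Tie1, the receptor pair of the angiopoietins, had log2 fold changes of -0.03 and 0.26 in nuclei chosen without counting each. Of 18 genes of endothelial fatty acid handling 4 were tested, with a median of 0.84; after Fabp4 the largest value was 1.14 for Lpl, the lipoprotein lipase gene.

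**Figure D4:**
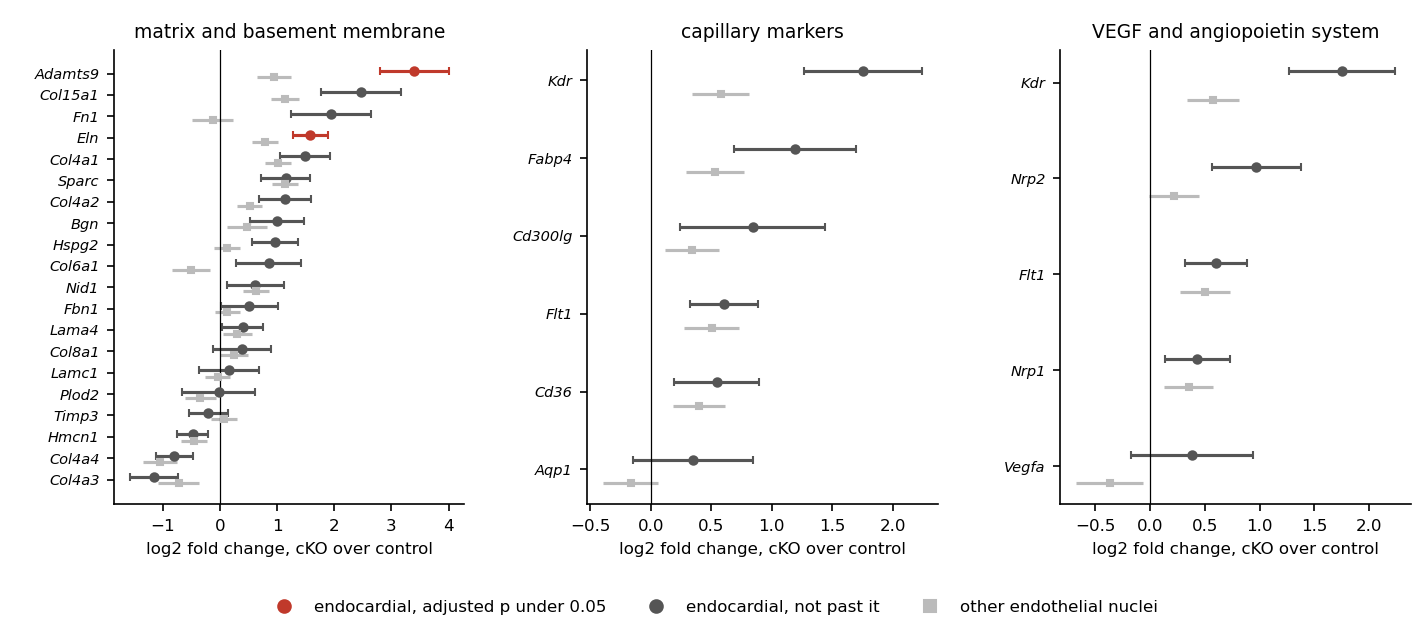
Log2 fold changes of cKO over control with their standard errors for the tested members of 3 gene lists, without genes of the selection, as circles for endocardial nuclei (red past an adjusted p of 0.05 in edgeR, dark grey otherwise) and light grey squares for other endothelial nuclei. Of the matrix genes 15 of 20 lie to the right of 0, with Col4a3 and Col4a4 farthest to the left, and all 6 tested capillary markers lie to the right.

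Among tested genes of the BMP and TGF-beta pathway, the ligand Bmp6 had the smallest p in edgeR. It was 1412 and 1298 CPM in endocardial nuclei of cKO 1 and 2, against 797 and 797 CPM in control 1 and 2, and edgeR gave a log2 fold change of 0.79 ± 0.30 (SE) that did not pass (adjusted p = 0.475). In other endothelial nuclei the order was the opposite, 273 and 289.7 CPM in cKO 1 and 2, against 391 and 428 CPM in control 1 and 2 (-0.56, adjusted p = 0.361, edgeR). The difference between the classes is given below. Of the 39 pathway genes 14 were tested and 9 had a log2 fold change above 0, against 50.7% of all genes tested. Their median was 0.17. The receptor gene Bmpr2 gave -0.48 and Id3, a target induced by BMP signals, gave 1.11, and neither passed. No member passed the adjusted threshold. Of the 14 tested, Bmp6 alone had an unadjusted p under 0.05, against 7.57% of all genes tested.

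Notch and neuregulin genes gave little beyond Nrg1. Of 23 Notch pathway genes 7 were tested, 3 had a log2 fold change above 0, the median was -0.04 and none had an unadjusted p under 0.05. Over all genes tested, 50.7% were above 0 and 7.57% had an unadjusted p under 0.05. Notch1, a receptor active in the endocardium, was 458 and 223 CPM in cKO 1 and 2, against 518 and 302 CPM in control 1 and 2. The target gene Hes1 gave -0.88 and Adam10, whose protease cleaves Notch receptors, gave 0.72. Of 16 neuregulin and EGF family genes, none but Nrg1 had enough UMIs to be tested. Of 21 genes of the endothelial-to-mesenchymal transition 6 were tested, 4 of them above 0 with a median of 0.25; Col3a1 and Fn1 led and the transcription factor genes Zeb1 and Zeb2 gave -0.28 and 0.13.

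Of 16 flow-responsive genes 12 were tested and 4 had a log2 fold change above 0, against 50.7% of all genes tested. Their median was -0.11. Edn1 encodes endothelin 1, a vasoconstrictor peptide, and was 275 and 149 CPM in endocardial nuclei of cKO 1 and 2, against 79.7 and 18.3 CPM in control 1 and 2 (2.62 ± 0.80, SE; adjusted p = 0.296, edgeR). Klf2, a transcription factor gene induced by laminar flow, was 165 and 137 CPM in cKO 1 and 2, against 239 and 275 CPM in control 1 and 2 (-0.81, adjusted p = 0.802, edgeR). Nos3, the endothelial nitric oxide synthase gene, was 367 and 332 CPM in cKO 1 and 2, against 438 and 604 CPM in control 1 and 2 (-0.64, adjusted p = 0.814, edgeR). For each of the 3 genes cKO and control libraries lay apart, and none passed. Edn1 passed without control 1 (3.30, adjusted p = 0.0297, edgeR) and not without control 2 (1.41, adjusted p = 0.694), cKO 1 (2.23, adjusted p = 1) or cKO 2 (2.96, adjusted p = 0.978).

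The natriuretic peptide system, to which Npr3 belongs, was mixed. Of 13 genes, 6 were tested besides Npr3, 3 of them above 0, against 50.7% of all genes tested, with a median of 0.0003. Prkg1, the cGMP-dependent kinase gene downstream of the peptide receptors, was 2969.9 and 3271 CPM in endocardial nuclei of cKO 1 and 2, against 4701 and 4598 CPM in control 1 and 2 (-0.53, adjusted p = 0.43, edgeR). Npr1, the receptor gene that signals through cGMP, was 293 and 229 CPM in cKO 1 and 2, against 199 and 119 CPM in control 1 and 2 (0.88, adjusted p = 0.802, edgeR).

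Glucocorticoid-responsive genes that could be tested in endocardial nuclei were all on 1 side. Of 16 genes 5 were tested, and all 5 had a log2 fold change below 0, with a median of -0.65. Over all genes tested, 50.7% were above 0. Zbtb16, a transcription factor gene strongly induced by glucocorticoids, was 257 and 492 CPM in endocardial nuclei of cKO 1 and 2, against 916 and 962 CPM in control 1 and 2 (-1.21 ± 0.36, SE; adjusted p = 0.296, edgeR). Fkbp5, a co-chaperone gene of the glucocorticoid receptor, gave -0.98 and Klf9 gave -0.65. The 16 genes summed to 1522 and 2007 CPM in cKO 1 and 2, against 2390.2 and 3096 CPM in control 1 and 2. Their sum in other endothelial nuclei was 2112 and 2301 CPM in the cKO libraries, against 2524 and 2916 CPM in the controls, so the sums of both kinds of nuclei were lower in cKO. Single genes were divided there: of 16 tested in other endothelial nuclei, 8 had a log2 fold change above 0, with a median of -0.02.

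Among junction genes, Ctnnb1, which encodes beta-catenin, had the largest log2 fold change of those tested. It was 403 and 223 CPM in endocardial nuclei of cKO 1 and 2, against 39.8 and 73.3 CPM in control 1 and 2 (2.16 ± 0.57, SE; adjusted p = 0.231, edgeR). Pkp4, a relative of the targeted Pkp2, was 422 and 726 CPM in cKO 1 and 2, against 1195 and 1181 CPM in control 1 and 2 (-0.95, adjusted p = 0.473, edgeR), and Ctnna1, the alpha-catenin gene, gave -0.92. Of 26 junction genes 11 were tested besides Pecam1, Cdh5 and Cdh11 of the selection. Of the 11, 6 had a log2 fold change above 0, against 50.7% of all genes tested. Their median was 0.20, and none passed the adjusted threshold.

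Inflammatory activation genes were mostly above 0, 7 of 8 tested out of 31, against 50.7% of all genes tested, with a median of 0.59. Icam1, which encodes a leukocyte adhesion molecule, was 219.99 and 309 CPM in endocardial nuclei of cKO 1 and 2, against 79.7 and 128 CPM in control 1 and 2 (1.26, adjusted p = 0.485, edgeR). Csf1, a macrophage growth factor gene, gave 1.08 and Nfkb1 gave 0.78, while Vcam1 gave -0.64. Vasoactive and growth factor genes had a median of 0.28 over 14 tested of 36, and beside Igfbp7 and Edn1 they held Pdgfb, a growth factor gene for mural cells, at 202 and 183 CPM in cKO 1 and 2, against 0 and 36.6 CPM in control 1 and 2 (adjusted p = 0.287, edgeR). Guidance genes had a median of 0.19 over 13 tested of 32, with Sema6a at 0.90. Coagulation genes other than Vwf had 3 tested of 16 listed, all above 0, against 50.7% of all genes tested, with a median of 0.19. The lists for interferon response, WNT, glycolysis, p53 and stress, immediate early genes and cell cycle had 1 to 3 tested members each and none passed. Of the venous list 4 of 8 were tested, with a median of -0.02, and of the arterial list Efnb2 alone, at 1.22.

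Markers of other cells in the endocardial sums were as follows. Mural markers summed to 568 and 366 CPM in cKO 1 and 2, against 279 and 211 CPM in control 1 and 2. Macrophage markers summed to 330 and 583 CPM in cKO 1 and 2, against 159 and 421 CPM in control 1 and 2, with Csf1r at 0 by selection. Epicardial markers summed to 275 and 315 CPM in cKO 1 and 2, against 79.7 and 156 CPM in control 1 and 2, with Gpm6a at 238 and 240.2 CPM in cKO 1 and 2, against 39.8 and 119 CPM in control 1 and 2. Lymphocyte markers reached at most 211 CPM and Schwann cell markers at most 154 CPM in any library. The lymphatic list, with Mmrn1, Reln and Prox1 at 0 by selection, summed to 293 and 360 CPM in cKO 1 and 2, against 438 and 403 CPM in control 1 and 2. In other endothelial nuclei, selected in the same way, it summed to 167 and 146 CPM in cKO 1 and 2, against 74.9 and 135 CPM in control 1 and 2. Lyve1 and Pkhd1l1 of this list were higher in endocardial nuclei of every library. For the mural, epicardial and fibroblast lists both cKO libraries lay above both controls.

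Whether cKO differed from control in another way in endocardial than in other endothelial nuclei was tested in 1 model over 8 sums with library as a block. Of 6318 genes, 15 passed an adjusted p of 0.05 in edgeR's quasi-likelihood test, 0.237%, of which 12 had the higher change in endocardial nuclei (0.19%) and 3 the lower (0.0475%). With RLE scaling, the size factor method of DESeq2, 21 passed, 14 higher and 7 lower. DESeq2 itself called 0 genes, with 145 at an unadjusted p under 0.05 against 395 (6.25%) in edgeR. Without cKO 1, cKO 2, control 1 and control 2 in turn, edgeR called 2, 6, 21 and 8 genes. Within other endothelial nuclei alone, 98 of 10251 genes passed (0.956%), 27 higher (0.263%) and 71 lower (0.693%), and 1058 (10.3%) had an unadjusted p under 0.05.

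Bmp6 was among the 15. Its levels, given above, put cKO above control in endocardial nuclei and below control in other endothelial nuclei, and the difference between the log2 fold changes was 1.39 ± 0.31 (SE, adjusted p = 0.0051, edgeR). It kept its sign in all 17 alternatives, between 1.14 and 1.82, and passed in 10 of them; it passed without control 1 (0.0204) and not without cKO 1, cKO 2 or control 2 (0.127 to 0.881). Vcam1, which encodes a leukocyte adhesion molecule, had the opposite pattern. It was 329.98 and 263 CPM in endocardial nuclei of cKO 1 and 2, against 398 and 485 CPM in control 1 and 2. Vcam1 rose in other endothelial nuclei, with 83.1 and 129 CPM in cKO 1 and 2, against 26.1 and 45.5 CPM in control 1 and 2 (1.45, adjusted p = 0.0464, edgeR). The difference was -2.10 ± 0.49 (SE, adjusted p = 0.0135, edgeR), and Vcam1 passed in 7 of 17 alternatives. The difference passed without control 1 (0.0151) and not without cKO 1, cKO 2 or control 2 (0.0791 to 0.999). The rise of Vcam1 in other endothelial nuclei did not pass without cKO 2 (adjusted p = 0.33, edgeR).

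Unc13b, which encodes a protein that primes vesicles for release, was 568 and 600.5 CPM in endocardial nuclei of cKO 1 and 2, against 1195 and 1035 CPM in control 1 and 2. In other endothelial nuclei it was 266 and 284 CPM in cKO 1 and 2, against 208 and 179.7 CPM in control 1 and 2. The difference was -1.35 ± 0.34 (SE, adjusted p = 0.026, edgeR), which passed without control 1 (0.0151) and not without cKO 1, cKO 2 or control 2 (0.623 to 1). Lama2, which encodes a laminin chain, was 659.97 and 618 CPM in endocardial nuclei of cKO 1 and 2, against 159 and 339 CPM in control 1 and 2. In other endothelial nuclei it was 365 and 432 CPM in cKO 1 and 2, against 700.2 and 819 CPM in control 1 and 2. The difference was 2.14 ± 0.36 (SE, adjusted p = 2.09e-05, edgeR), and it passed in 13 of 17 alternatives. It was 1.25 and did not pass without nuclei with markers of other cells (0.556), did not pass without cKO 1 (0.0729), and was 1.18 and 0.93 with mitochondrial limits of 10% and 20%.

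Others that passed were Mdga2, Rerg, Samd5, Meg3, Gm12002, Ebf2, Abca8a, Cald1 and Gm56730. Mdga2, Rerg, Meg3, Ebf2, Abca8a and Cald1 had 0 UMIs in endocardial nuclei of control 1, and Samd5 had 0 in those of control 2, so their fitted differences are no bounds. Of the 13 genes named here, none passed with each of the 4 libraries left out in turn. Other endothelial nuclei carried markers of neighbouring cells in unequal amounts. Their 13 mural markers summed to 617 and 771 CPM in cKO 1 and 2, against 1703 and 1613 CPM in control 1 and 2. In a comparison with other endothelial nuclei that carried fewer such markers, chosen after seeing the data, 13 genes passed and 8 of them were among the 15: Bmp6, Gm12002, Gm56730, Lama2, Meg3, Samd5, Unc13b and Vcam1. Without nuclei of either class that carried markers of other cells, 6 genes passed and 4 of them were among the 15; Meg3 (1.78, adjusted p = 0.973), Lama2, Unc13b (-1.11, adjusted p = 0.269) and Vcam1 (-1.90, adjusted p = 0.0982, edgeR) did not pass there. Adamts9 passed too in the comparison with stricter nuclei, with a difference of 2.82 ± 0.64 (SE, adjusted p = 0.00599, edgeR). In those stricter nuclei Rerg was 8.57 and 4.43 CPM in cKO 1 and 2, against 0 and 1.82 CPM in control 1 and 2, where all other endothelial nuclei had 39.4 and 69.3 CPM, against 137 and 197 CPM.

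**Figure D5:**
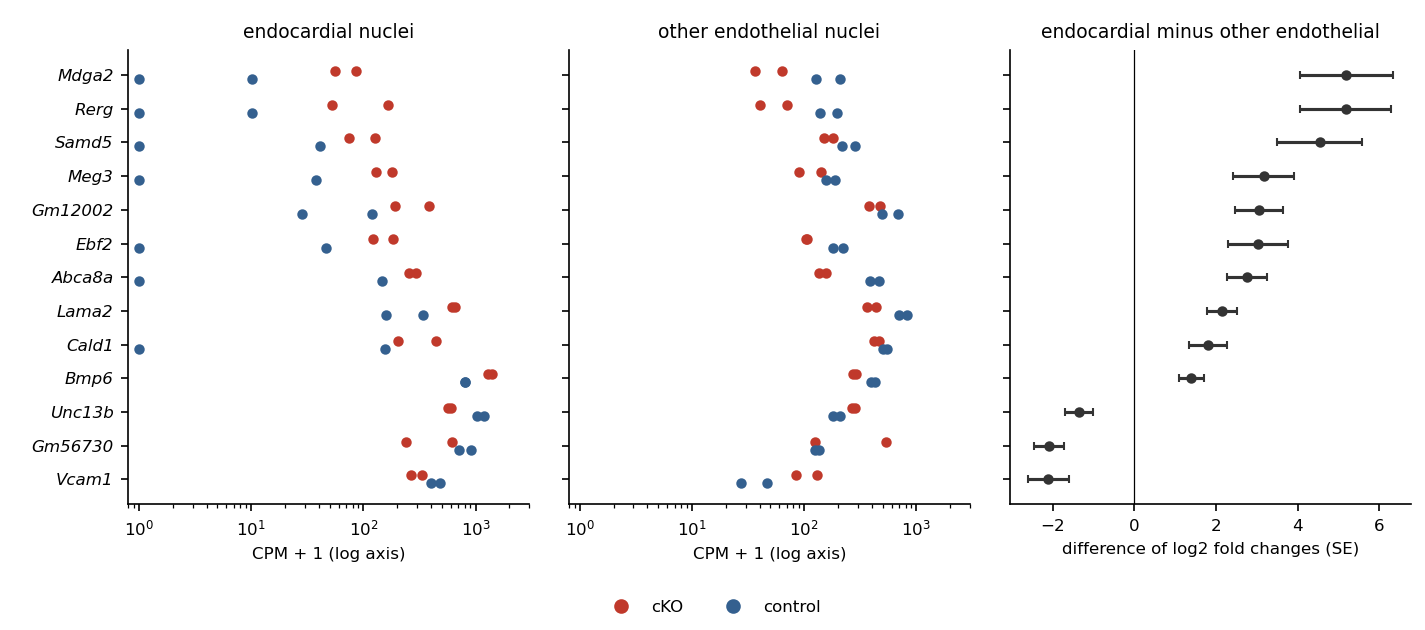
CPM + 1 on a log axis in endocardial and in other endothelial nuclei of each library for 13 genes past an adjusted p of 0.05 in the edgeR test of the difference between the classes, and that difference with its standard error; red points are cKO and blue points control libraries. Bmp6 has its cKO points above control in endocardial nuclei (1412 and 1298 against 797 and 797 CPM) and below control in other endothelial nuclei, and Vcam1 has the opposite order.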

How the data were processed

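Counts of UMIs per gene and nucleus were deposited by the authors for each of the 4 BD Rhapsody libraries. The labels' protocols describe nuclei released from frozen hearts, tagged with a nucleoporin 62 antibody and sorted. The submitters' processing notes name the build mm10. Which aligner, counting program and annotation were used, and whether with strand, is not stated in the labels, and a count table without strand cannot separate overlapping genes. Groups were taken from sample titles. Nothing in the labels ties the replicate numbers to a shared litter or day.

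From the counts, endocardial nuclei were selected as described above and their UMIs summed per library. The sums were tested with edgeR 4.0.16 in R 4.3.3 (quasi-likelihood test, TMM scaling, filterByExpr, Benjamini-Hochberg adjustment over all genes tested, threshold 0.05). Genes of the rule stayed in the fit over all genes, but their own fold changes are given from nuclei selected without each, and they are left out of the counts and medians of gene lists. The difference between classes had 8 sums with library as a block. Shares were compared with exact permutation tests. P-values measure the spread between libraries of pooled hearts. A fold against a group at 0 used a floor of 3 counts.

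Cardiomyocyte nuclei, used for single levels, had at least 3% of UMIs from the 7 genes and no Pecam1 or Cdh5; the 10% first intended left 3, 9, 3 and 14 nuclei in cKO 1, cKO 2, control 1 and control 2. Fibroblast nuclei had at least 3 Dcn UMIs and macrophage nuclei at least 2 Csf1r UMIs. No doublet caller was used for the main results. Scrublet (scanpy 1.11.5), removing the top 6% by score, took 0 and 1 endocardial nuclei of cKO 1 and 2 and 0 and 0 of control 1 and 2.

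Named genes were those past the threshold with libraries that do not overlap and a mean of at least 20 CPM, list members past it or with the 3 smallest p values, the 20 highest and 10 lowest endocardial to other endothelial ratios among genes with at least 50 CPM in the higher class of every library, and the 6 highest and 6 lowest genes past the threshold between classes. Other genes named, such as the remaining genes past the threshold between classes, Col4a1, Col15a1, Pdgfb and the list members with an unadjusted p under 0.05, were picked after their values were seen. The members, the criteria and the 35 gene lists were chosen with earlier results of these data known.

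Alternatives were each library left out, DESeq2 1.42.0, RLE scaling, no expression filter, the replicate number as a block, and other limits on cardiomyocyte, endocardial, endothelial and mitochondrial UMIs, total UMIs, doublets and markers of other cells. Gene positions are from GENCODE M21, which matched 27169 of 44628 identifiers. Of the 20 genes with high ratios, 12 have a RefSeq promoter window. Some genes that met the naming rule are not reported here. Calculations were tested on simulated counts.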

Additional observations from a re-analysis of the deposited data

Results flagged for a closer look

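The genes named here passed the main edgeR test of the class by group term, which asks whether the change from control to cKO differed between endocardial and other endothelial nuclei. DESeq2 called 0 genes for the same term. The values are endocardial minus other endothelial log2 fold changes of cKO over control. The difference was positive for Mdga2 (5.19), Rerg (5.17), Samd5 (4.54), Meg3 (3.17), Gm12002 (3.06), Ebf2 (3.03), Abca8a (2.77), Lama2 (2.14), Cald1 (1.81) and Bmp6 (1.39). It was negative for Unc13b (-1.35), Gm56730 (-2.09) and Vcam1 (-2.10). With stricter comparison nuclei, Ebf2 and Cald1 did not pass (adjusted p = 0.299 and 0.138, edgeR), and Mdga2 and Rerg had no value. Mdga2 in those stricter nuclei was 27.1 and 21.6 CPM in cKO 1 and 2, against 17.7 and 21.9 CPM in control 1 and 2.

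Abca8a is a fibroblast marker; it was 293 and 252 CPM in endocardial nuclei of cKO 1 and 2, against 0 and 147 CPM in control 1 and 2, and 157 and 135 CPM in other endothelial nuclei of cKO 1 and 2, against 462 and 381 CPM in control 1 and 2. Gm56730, a gene named only by prediction, was 238 and 618 CPM in endocardial nuclei of cKO 1 and 2, against 916 and 705 CPM in control 1 and 2. In other endothelial nuclei Gm56730 was 122 and 540.1 CPM in cKO 1 and 2, against 124 and 135 CPM in control 1 and 2, so cKO 2 stood apart from the other 3 libraries there. Without nuclei that carried markers of other cells, the difference for Abca8a was 1.07 (adjusted p = 0.99, edgeR), and with stricter comparison nuclei it was 1.94 (adjusted p = 0.101, edgeR). For Gm56730 it was -2.37 without such nuclei (adjusted p = 1.8e-05, edgeR).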

How the results depend on the processing

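The number of endocardial genes called, 5, was 0 with DESeq2, 33 with the replicate block, 1 with under 1% cardiomyocyte UMIs, 0 with at least 5 endocardial UMIs (90 at an unadjusted p under 0.05, edgeR), 0 with at least 1000 UMIs (134), 0 with at least 5 endothelial UMIs (147), 1 and 11 with mitochondrial limits of 10% and 20%, and 8 without nuclei with other markers; leaving out 1 library gave 0 to 16. RLE scaling, no expression filter and Scrublet gave 5 each. For other endothelial nuclei, 98 became 43 with DESeq2, 195 with no expression filter, 652 with the replicate block, 150 with at least 1000 UMIs, 39 at 20% mitochondrial UMIs, 24 with at least 5 endothelial UMIs, 27 without nuclei with other markers and 16 with stricter comparison nuclei, and 104 to 182 with 1 library left out. For the difference between classes, 15 became 0 with DESeq2, 4 with no expression filter, 8 with under 1% cardiomyocyte UMIs, 4 with at least 5 endocardial UMIs, 75 and 41 at 10% and 20% mitochondrial UMIs, 3 with at least 5 endothelial UMIs and 6 without nuclei with other markers, and 2 to 21 with 1 library left out. The log2 ratio of the endocardial share of nuclei ran from -0.0316 to 1.14 with 1 library left out and was -0.0321 at 20% mitochondrial UMIs and 0.89 after thinning. That of the share of endothelial nuclei ran from -0.80 to 0.16. The cause of these shifts was not tested.

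Of single named genes under the alternatives, 1500 values kept direction and side of the threshold, 77 changed sign with no call in either setting (among them Col4a3, Vcam1 and Abca8a in endocardial nuclei, at 0.10 without control 2 and at 0.12 and -0.15 with 20% mitochondrial UMIs), 200 lost the call, 14 gained it and 1 reversed. This was Mdga2 in other endothelial nuclei, 0.17 with stricter comparison nuclei. With a replicate block, Chrm3, Ctnnb1, Col3a1, Col4a1, Pdgfb, Prkg1, Kdr and Zbtb16 passed the endocardial test. The labels do not say what the replicate numbers mark. Deviations of same-numbered libraries correlated at 0.15 in endocardial and 0.30 in other endothelial nuclei, with 2 pairs. Some levels followed the number: Tnnt2 in cardiomyocyte nuclei was 14231 and 17187 CPM in cKO 1 and control 1, against 8585 and 9827 CPM in cKO 2 and control 2. Others followed the group: Mybpc3 there was 1738 and 1406 CPM in cKO 1 and 2, against 1004 and 884 CPM in control 1 and 2. What same-numbered libraries share was not tested. At 1% mitochondrial UMIs the count tests could not be fitted, since cKO 1 and control 1 kept 0 endocardial nuclei. Sums of 25103 to 174861 UMIs limit the tests to 2007 genes, and 13 nuclei of control 1 make it the least certain value.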
